A study of Mus musculus with 3 samples.

Results

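The regions described here lie in 2 intervals of the mouse genome, named for vomeronasal receptor genes and for the Obox homeobox genes. They are all calls whose midpoint fell between 7000 and 16500 kb of chromosome 7 or between 17000 and 21500 kb of chromosome 17, in the mm9 build. This gave 203 of the 19549 KAP1 peaks and 335 of the 39526 H3K9me3 regions, over 14 Mb. The calls come from chromatin immunoprecipitation with sequencing (ChIP-seq) in proliferating C2C12 myoblasts, an established muscle precursor line labelled as of the C3H strain. There was 1 KAP1 library, made with a homemade rabbit antibody, and 1 H3K9me3 library, and a library made without antibody was not analysed here. No replicate exists, so no value has a spread between replicates, no test between libraries was possible, and the intervals given are 95% counting intervals (Wilson for shares, exact Poisson for densities). Neighbouring calls are not independent, which these counting intervals do not take into account.

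KAP1, encoded by Trim28, does not itself recognise a DNA sequence. Zinc finger proteins with a KRAB domain carry it to their sites, where it acts as a corepressor and recruits the methyltransferase SETDB1. SETDB1 trimethylates lysine 9 of histone H3, and the resulting mark, H3K9me3, is typical of silent heterochromatin. Vomeronasal receptors of the Vmn1r and Vmn2r families are pheromone receptors of the vomeronasal organ, and each family lies in arrays of related genes. Obox genes encode homeobox proteins of oocytes and early embryos. Neither group is known for a role in muscle cells.

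The gene content of the intervals was taken from how they were defined. An mm9 annotation was not used here, so no call is assigned to a gene. The RefSeq table of GRCm38.p6 was read for gene order only. From Aurkc to Crx on chromosome 7 it listed 344 entries. These held 48 Vmn1r genes and pseudogenes, 47 of Vmn2r and 51 of Obox (6 coding and 45 pseudogenes, of which 38 carried Obox4-ps names). They also held 12 Zfp zinc finger entries (11 coding) and 9 Zscan4 entries. Trim28 itself is in this order. From Riok2 to Zfp51 on chromosome 17 there were 114 entries. These held 26 Vmn1r (12 pseudogenes), 36 Vmn2r (14 pseudogenes), 8 Fpr formyl peptide receptor entries (1 pseudogene) and 4 Zfp genes. Whether these 2 runs of genes end where the mm9 intervals end was not checked. The counts are thus those of the runs and may leave out genes of the intervals.

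The copies within these arrays differ in how alike they are. Over the 250 bases before each listed start, 26 Vmn2r promoters of chromosome 7 had a median identity of 97.2% to their nearest relative there, and 19 of them reached 90%. Among these, 9 genes in 4 sets had identical promoters, one set being Vmn2r31, Vmn2r33 and Vmn2r38. For 22 Vmn1r promoters of chromosome 7 the median was 56% and the highest 76.4%. For 5 Obox promoters the median was 84.4% and the highest 87.2%. An offset between listed starts also counts as difference here, and this was not adjusted for in any family. On chromosome 17 the medians were 82.6% for 22 Vmn2r promoters and 52.8% for 12 Vmn1r promoters. The identity that unrelated sequences reach by this measure was not computed. The low values, such as the Vmn1r medians, therefore cannot be read as partly shared sequence. How reads that match several copies were placed before peak calling is not given in the sources used here, and its part in the counts was not tested.

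A most alike pair short of identical is printed for the Vmn2r and for the Obox genes of chromosome 7, from RefSeq (GRCm38.p6), 5′ to 3′ on the strand of the gene. Vmn2r38 (chr7:9097766-9098015, minus strand) and Vmn2r44 (chr7:8383239-8383488, minus strand) were 99.6% identical, with 1 difference, marked by the capital. Obox1 (chr7:15547007-15547256, plus strand) and Obox5 (chr7:15750120-15750369, plus strand) were 87.2% identical, and capitals mark the 32 alignment columns that differed, gaps included. The capitals that end Obox5 have no counterpart in Obox1, and many capitals of Obox1 stand at its start. The 87.2% thus counts an offset between the listed starts as well as differences inside the shared stretch. Identity over the shared stretch alone was not computed. The printed positions are in GRCm38.p6 and cannot be set beside the mm9 positions of the calls.
Vmn2r38: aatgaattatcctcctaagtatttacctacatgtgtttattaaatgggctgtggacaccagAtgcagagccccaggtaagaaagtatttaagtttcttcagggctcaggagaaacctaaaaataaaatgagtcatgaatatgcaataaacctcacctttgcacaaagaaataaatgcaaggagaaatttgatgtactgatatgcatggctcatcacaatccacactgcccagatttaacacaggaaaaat
Vmn2r44: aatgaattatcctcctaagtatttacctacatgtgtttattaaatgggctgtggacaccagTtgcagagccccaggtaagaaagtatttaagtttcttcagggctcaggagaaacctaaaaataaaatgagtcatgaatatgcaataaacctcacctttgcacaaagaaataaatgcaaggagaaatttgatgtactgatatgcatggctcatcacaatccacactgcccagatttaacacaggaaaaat
Obox1: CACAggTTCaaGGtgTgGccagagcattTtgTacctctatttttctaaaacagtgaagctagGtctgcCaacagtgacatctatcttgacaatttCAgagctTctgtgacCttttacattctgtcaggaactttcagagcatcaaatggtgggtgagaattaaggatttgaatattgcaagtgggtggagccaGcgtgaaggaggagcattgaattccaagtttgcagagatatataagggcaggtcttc
Obox5: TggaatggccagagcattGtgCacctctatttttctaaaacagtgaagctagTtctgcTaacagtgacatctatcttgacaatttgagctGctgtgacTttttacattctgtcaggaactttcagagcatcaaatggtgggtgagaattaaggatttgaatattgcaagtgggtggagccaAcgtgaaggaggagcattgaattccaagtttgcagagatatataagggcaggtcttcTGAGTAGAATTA

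Both lists were denser in the intervals than elsewhere. KAP1 peaks numbered 14.5 per Mb (12.6 to 16.6) in the intervals, against 7.54 per Mb in the rest of the list, a ratio of 1.92 (1.67 to 2.21). H3K9me3 regions numbered 23.9 per Mb (21.4 to 26.6) in the intervals, against 15.3 per Mb in the rest, a ratio of 1.57 (1.40 to 1.74). H3K9me3 covered 3.85% of the intervals and 1.53% of the rest. The excess was not spread evenly, and 3 blocks differed in which mark was dense and in how often the 2 lists met.

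The KAP1 excess lay mostly in the Obox block, 15500 to 16500 kb of chromosome 7. It held 66 peaks, or 66 per Mb (51.0 to 84.0), which is 8.76 times the density in the rest of the list. Its middle, 15700 to 16100 kb, held 50 of them in 0.4 Mb, 16.6 times that density (12.3 to 21.9). The Obox block had 28 H3K9me3 regions, 1.83 times the density in the rest (1.22 to 2.65). The proximal block of chromosome 7, 7000 to 15500 kb, had 94 KAP1 peaks at 11.1 per Mb, 1.47 times the rest (1.19 to 1.80), and 155 H3K9me3 regions at 18.2 per Mb, 1.19 times the rest (1.01 to 1.40). On chromosome 17 the excess was in the other mark. That block held 152 H3K9me3 regions at 33.8 per Mb, 2.21 times the rest (1.88 to 2.59), while its 43 KAP1 peaks were 1.27 times as dense as in the rest, with a counting interval that includes 1 (0.918 to 1.71). Of its H3K9me3 regions 67 lay in the first 500 kb, and the remaining 4 Mb had 21.25 per Mb. The remaining parts of the same chromosomes had 6.07 KAP1 peaks and 10.3 H3K9me3 regions per Mb on chromosome 7, and 8.28 and 17.9 per Mb on chromosome 17.

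In bins of 500 kb, a bin of the genome held a median of 3 KAP1 peaks and 6 H3K9me3 regions, and the 28 bins of the intervals held medians of 4 and 10. A bin was counted as dense where it passed the 90th percentile of all 5174 bins, which is more than 8 KAP1 peaks or more than 14 H3K9me3 regions. For KAP1, 7 of the 28 bins were dense, against 7.9% of all bins. For H3K9me3, 6 of the 28 were dense, against 8.23% of all bins. Dense bins of the 2 lists coincided in 15500 to 16000 kb of chromosome 7 and 17000 to 17500 kb of chromosome 17, and in no other bin of the intervals. In 6 of the 28 bins KAP1 peaks outnumbered H3K9me3 regions, a share of 21.4%, beside 14.6% of all bins.

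**Figure D1:**
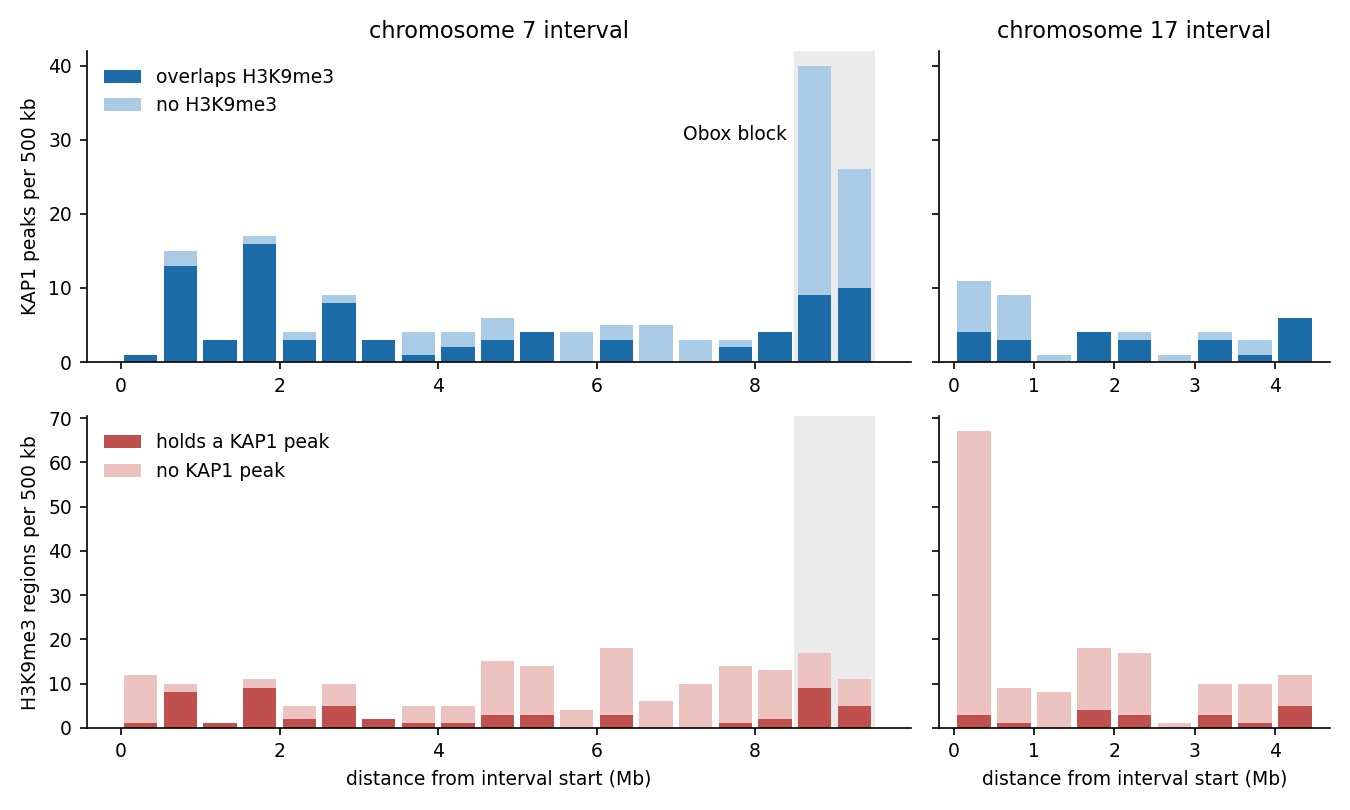
Number of KAP1 peaks (upper panels) and H3K9me3 regions (lower panels) per 500 kb bin, by distance from the start of each interval in Mb, with dark bars for calls that overlap a call of the other list and light bars for the others, and grey shading for the Obox block. The 2 Obox bins hold 40 and 26 KAP1 peaks, and the first bin of chromosome 17 holds 67 H3K9me3 regions.

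Along chromosome 7 the KAP1 counts were uneven. From 7000 kb the first 7 bins held 1, 15, 3, 17, 4, 9 and 3 peaks. The next 10 bins, from 10500 to 15500 kb, stayed between 3 and 6. The 2 Obox bins followed with 40 and 26, more than any bin before them. H3K9me3 counts had another order, from 1 region in 8000 to 8500 kb to 18 in 13000 to 13500 kb. The bin at 13000 kb had the largest covered length of the chromosome 7 interval, 66.8 kb, with 5 KAP1 peaks.

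On chromosome 17 the first bin stood apart from the other 8. It had 67 H3K9me3 regions, and the other bins had between 1 and 18. These regions covered 167.2 kb, or 33.4% of the bin, against 93.8 kb in the remaining 4 Mb of the block. The same bin had 11 KAP1 peaks, of which 4 overlapped H3K9me3. The other bins of the block had between 1 and 9 KAP1 peaks.

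Across the 28 bins, KAP1 and H3K9me3 counts gave a Spearman's rho of 0.395 and a Pearson's r of 0.208, beside a rho of 0.431 over all bins of the genome. KAP1 counts set against covered length gave a rho of 0.648 and an r of 0.185, and 0.616 and 0.391 without the 2 bins farthest from the median. The points share 2 libraries and their sequence composition, so these are descriptions. The Obox bins had the highest KAP1 counts at 16.0 and 27.9 kb of H3K9me3 cover, and the first bin of chromosome 17 had the largest cover, 167.2 kb, with 11 KAP1 peaks.

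**Figure D2:**
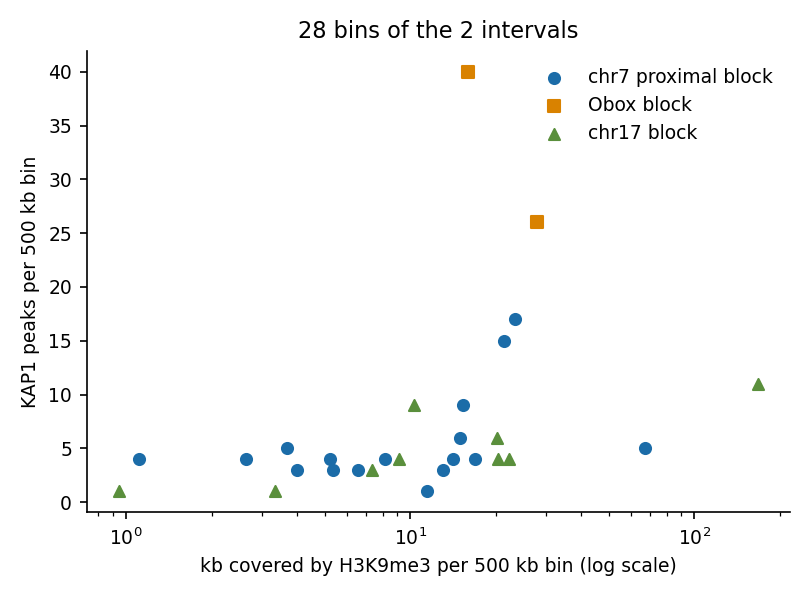
Each point is a 500 kb bin, placed by the length covered by H3K9me3 in kb (horizontal, log scale) and by its KAP1 peak count (vertical), with circles for the proximal block of chromosome 7, squares for the Obox block and triangles for chromosome 17. The 2 Obox bins hold 40 and 26 KAP1 peaks at 16.0 and 27.9 kb of H3K9me3, and the bin of chromosome 17 with 167.2 kb holds 11.

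An overlap was counted where a KAP1 peak and an H3K9me3 region shared at least 1 bp. In the intervals 109 of 203 KAP1 peaks overlapped H3K9me3, which is 53.7% (46.8 to 60.4), beside 44.1% over the whole list and 8514 of 19346 peaks, 44.0% (43.3 to 44.7), in the rest. The figure for both intervals averages over unlike blocks. In the proximal block 66 of 94 peaks overlapped, 70.2% (60.3 to 78.5). In the Obox block 19 of 66 did, 28.8% (19.3 to 40.6), which is below the rest of the list. On chromosome 17 it was 24 of 43, 55.8% (41.1 to 69.6). Counting intervals of the proximal and the Obox block did not overlap each other, and neither included the 44.0% of the rest. The contrast between 8 to 9 Mb and the Obox block was part of how the intervals were defined, so these shares are descriptions.

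Seen from the other list, 76 of 335 H3K9me3 regions of the intervals held a KAP1 peak, 22.7% (18.5 to 27.5), beside 15.4% over the whole list. The blocks then stood in another order. In the Obox block 14 of 28 regions held a peak, 50% (32.6 to 67.4). In the proximal block it was 42 of 155, 27.1% (20.7 to 34.6), and on chromosome 17 it was 20 of 152, 13.2% (8.68 to 19.4). So the Obox block had the lowest share of KAP1 peaks with H3K9me3 and the highest share of H3K9me3 regions with KAP1, with more than 2 KAP1 peaks for each H3K9me3 region.

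**Figure D3:**
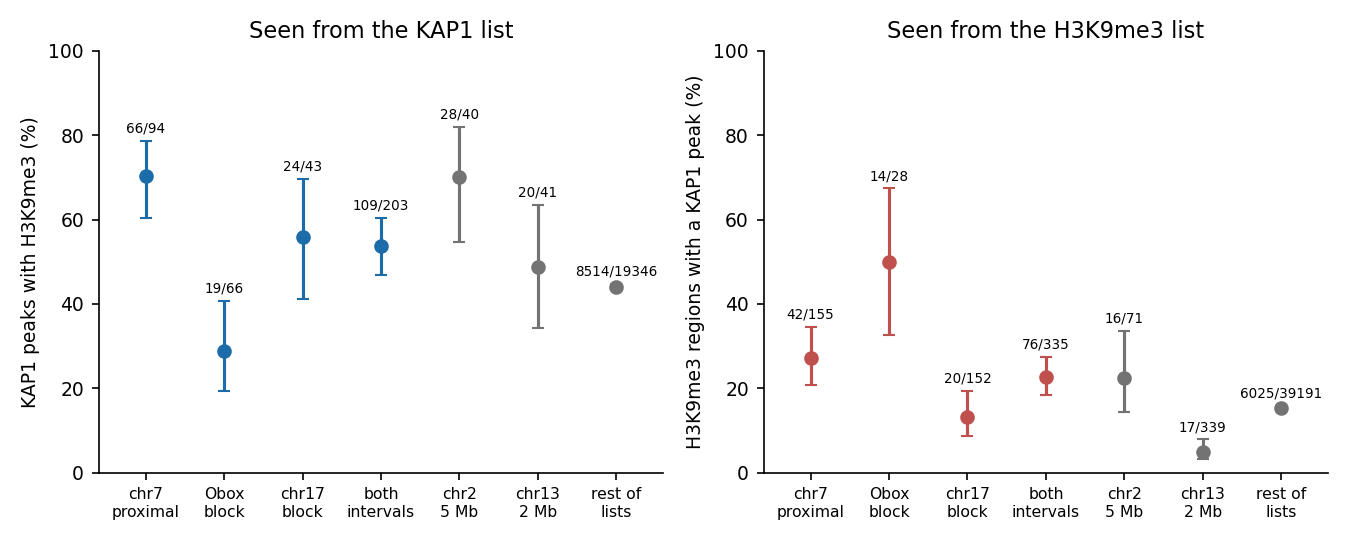
Share of KAP1 peaks that overlap H3K9me3 (left) and of H3K9me3 regions that hold a KAP1 peak (right), in percent with 95% Wilson intervals and counts, for the blocks and both intervals (coloured) and for 5 Mb of chromosome 2, 2 Mb of chromosome 13 and the rest of the lists (grey). On the left the proximal block is at 70.2% and the Obox block at 28.8%, and on the right they are at 27.1% and 50%.

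A pair of other gene arrays gives a scale for these shares. In 85 to 90 Mb of chromosome 2, chosen for olfactory receptor genes, 28 of 40 KAP1 peaks overlapped H3K9me3, 70% (54.6 to 81.9), close to the proximal block. KAP1 density there was 8 per Mb. In 65 to 67 Mb of chromosome 13, chosen for zinc finger genes, 20 of 41 peaks overlapped, 48.8% (34.2 to 63.5), and 17 of 339 H3K9me3 regions held a peak, 5.01%. The Obox block thus had a lower share of overlapping KAP1 peaks than either, although its counting interval overlaps that of chromosome 13.

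The proximal block of chromosome 7 changed along its length. Between 7500 and 10500 kb, 46 of 51 KAP1 peaks overlapped H3K9me3, 90.2% (79.0 to 95.7), and 27 of 39 H3K9me3 regions held a peak. Between 10500 and 15500 kb, 19 of 42 peaks overlapped, 45.2% (31.2 to 60.0), near the share of the rest of the list, and 14 of 104 regions held a peak. These limits were chosen after the bins were seen. In the bins from 12500, 13500 and 14000 kb none of 4, 5 and 3 KAP1 peaks overlapped, which leaves upper limits of 49.0, 43.45 and 56.1% on such small counts.

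Overlap was almost complete between 8 and 9 Mb, where 19 of 20 KAP1 peaks met H3K9me3, 95% (76.4 to 99.1), and 10 of 12 H3K9me3 regions held a KAP1 peak. Of these peaks 18 stood in 3 chains, a chain being KAP1 peaks with at most 10 kb between neighbours. The first ran from 8332938 to 8339821 with 3 peaks on a single H3K9me3 region of 6537 bp. The second ran from 8647891 to 8665368 with 9 peaks on 5 regions. The third ran from 8835561 to 8843641 with 6 peaks on 3 regions. Every peak of the 3 chains overlapped. The single exception in the window, at 8925367 to 8925995 with a score of 85.01, lay 495 bp from an H3K9me3 region of 153 bp. Outside the chains and 2 single peaks the window was empty of KAP1, with as much as 310.8 kb from one peak start to the next.

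The rest of the proximal block held 9 chains of 3 or more peaks, and in 7 of them every peak overlapped H3K9me3. Those 7 were 4.45 to 8.15 kb long, with H3K9me3 over 73.2 to 96% of their length. One of the other 2, at 7747153 to 7764383, had 7 of 9 peaks overlapping. The other, at 11609535 to 11619028, had 1 of 3, with scores no higher than 74.08. Over the whole proximal block 54 of the 94 KAP1 peaks stood in chains of 3 or more, while 30 stood alone, 11 of them on H3K9me3. The block also had 24 stretches of more than 100 kb without a call of either list. These stretches added up to 4524 kb of the 8.5 Mb, the longest being 7231312 to 7732140.

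In the Obox block the chains were longer and mostly without H3K9me3. Of its 66 KAP1 peaks 46 stood in 3 chains of 10 or more peaks, all in the middle, and 6 of these 46 overlapped H3K9me3, 13.04% (6.12 to 25.7). The chain at 15735519 to 15776299 had 12 peaks, 1 of them overlapping. The chain at 15786508 to 15865926 had 20 peaks in 79.4 kb, 4 of them overlapping. The chain at 16018716 to 16045581 had 14 peaks in 26.9 kb, 1 of them overlapping. H3K9me3 covered 1.71%, 6.29% and 3.00% of the 3 chains, in order of position. It covered 73.2 to 96% of the fully overlapping chains of the proximal block and 4.38% of its chain at 11609535. The fully overlapping chains were picked by their overlap, so a high cover follows in part from that choice. The 2 such chains of the Obox block itself had 76.7 and 100%.

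The 40 peaks of these chains without H3K9me3 had a median distance of 8.11 kb to the nearest region, with a range of 0.118 to 29.6 kb, and 5 of them lay within 1 kb. Of the 40, 18 scored above the median of the whole KAP1 list, 106.1, and the highest reached 311.8. Chains of this size were rare in the list, which held 24 of them. In the 21 others 30 of 418 peaks overlapped H3K9me3, 7.18% (5.07 to 10.1), and in none of the 24 did as many as 50% of the peaks overlap. A low share was thus found in long chains over the whole list and not only in the Obox block.

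**Figure D4:**
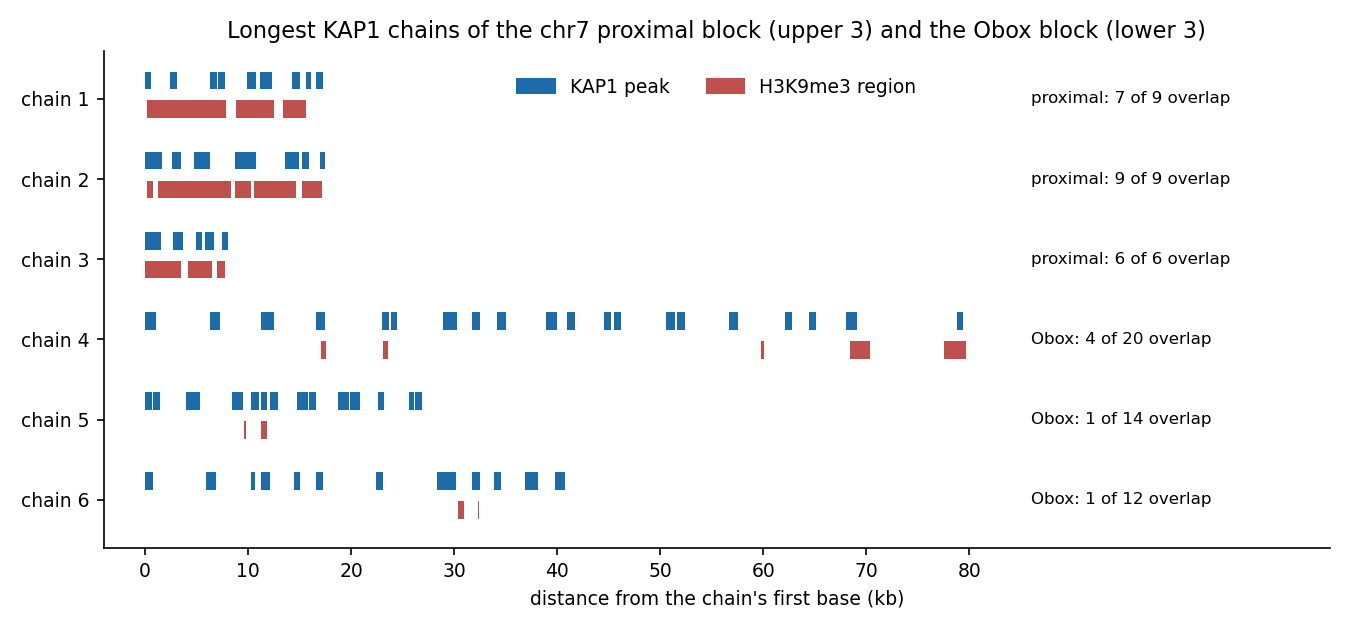
Positions of KAP1 peaks (blue) and H3K9me3 regions (red) in the 3 chains with most peaks of the proximal block (chains 1 to 3) and of the Obox block (chains 4 to 6), by distance from the first base of the chain in kb. In the proximal chains 7 of 9, 9 of 9 and 6 of 6 peaks overlap, and in the Obox chains 4 of 20, 1 of 14 and 1 of 12.

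The edges of the Obox block had a share like that of the proximal block. Outside 15700 to 16100 kb, 11 of 16 KAP1 peaks overlapped H3K9me3, 68.8% (44.4 to 85.8), against 8 of 50 inside, 16% (8.34 to 28.5). The chain at 16181245 to 16194294 had 5 of 5 peaks on H3K9me3. The chain at 16288498 to 16294788 had 3 of 3, under a region of 9099 bp that was the widest of the block, and it held the highest-scoring KAP1 peak of the block (411.1). Beyond it came the longest stretch of the block without a call, 103.1 kb from 16295320 to 16398450.

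By chain size over both intervals, 22 of 61 single peaks overlapped H3K9me3, 36.1% (25.2 to 48.6). Of the peaks in chains of 2 to 9, 81 of 96 did, 84.4% (75.8 to 90.3). Of those in longer chains, 6 of 46 did. In the rest of the list the shares were 25.8%, 61.6% and 7.18%, in the same order of size, each lower than in the intervals. The values for single peaks and for long chains lie within the counting intervals of the same classes in the intervals, and that for chains of 2 to 9 lies below.

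Spacing followed the same division. The median distance from one KAP1 start to the next was 5.91 kb in the intervals, against 48.8 kb in the rest of the list. It was 3.61 kb in the Obox block, 9.52 kb in the proximal block and 58.4 kb on chromosome 17. Neighbours within 10 kb made up 76.9%, 50.5% and 26.2% of pairs in these blocks, in that order, and 35.0% in the rest. On chromosome 17 KAP1 was thus no more clustered than in the rest of the list. H3K9me3 was closest on chromosome 17, with medians of 10.9 kb in the Obox block, 24.5 kb in the proximal block and 7.45 kb on chromosome 17, beside 27.3 kb in the rest. The first 500 kb of chromosome 17's block held 67 of its 152 regions, and its spacing without them was not computed.

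**Figure D5:**
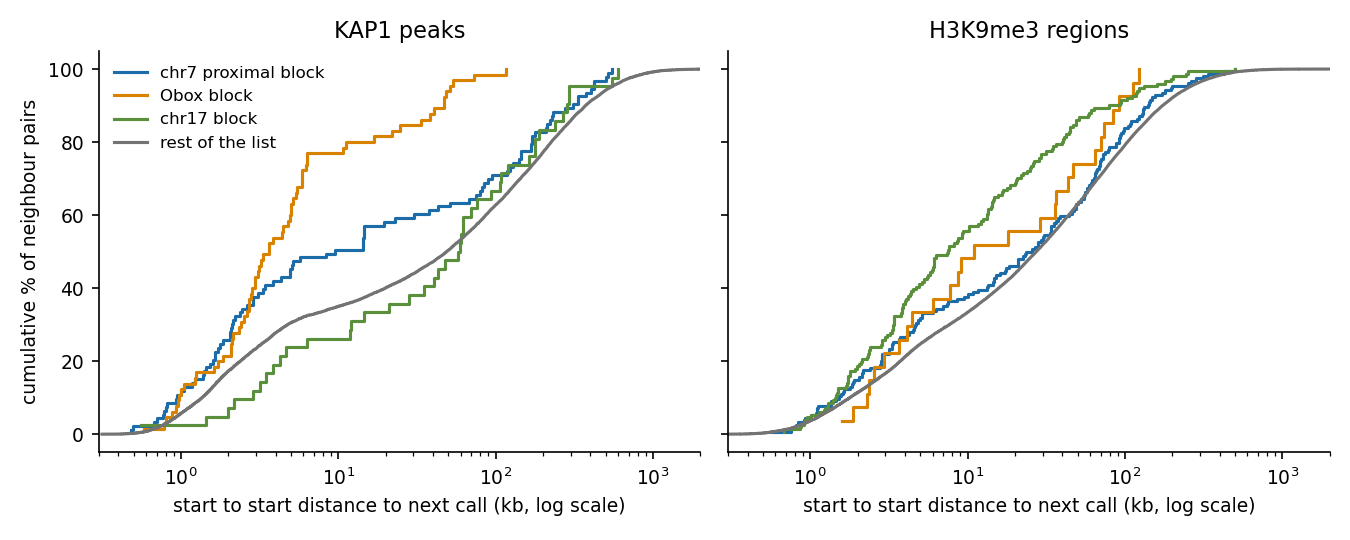
Cumulative share of neighbouring pairs, in percent, by the distance from one start to the next in kb (log scale), for KAP1 peaks (left) and H3K9me3 regions (right) in the 3 blocks and in the rest of each list. KAP1 reaches 76.9% within 10 kb in the Obox block and 35.0% in the rest, and H3K9me3 is closest on chromosome 17, with a median of 7.45 kb.

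Calls of both lists were slightly to moderately wider in the intervals. KAP1 peaks had a median width of 732 bp in the intervals and 649 bp in the rest, with 706 bp in the proximal block, 753 bp in the Obox block and 750 bp on chromosome 17. Over both intervals width was alike with and without overlap, with medians of 736 bp for peaks on H3K9me3 and 720.5 bp for the others. In the rest of the list these were 732 and 602 bp. The blocks differed in this. The proximal block had 735 and 636 bp, in the direction of the rest of the list. The Obox block had 736 and 771 bp and chromosome 17 had 737.5 and 750 bp, in the other direction. The 42 Obox peaks of 15700 to 16100 kb without H3K9me3 had a median of 785.5 bp. They were thus no narrower in the median than the overlapping peaks of the rest of the list.

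H3K9me3 regions had a median width of 766 bp in the intervals and 605 bp in the rest. Those that held KAP1 were wide in every block, with medians of 2273 bp in the proximal block, 1992 bp in the Obox block and 2260 bp on chromosome 17. Those without KAP1 had medians of 550, 477.5 and 759.5 bp in the same order. The rest of the list had the same direction, with medians of 1663 bp with KAP1 and 540 bp without. A wide region has more room for a peak, and this was not adjusted for. Of regions of 3 kb or more, 16 of 19 held a KAP1 peak in the proximal block, 4 of 4 in the Obox block and 8 of 23 on chromosome 17, against 1672 of 2360 (70.8%) in the rest. On chromosome 17 most wide regions thus held no KAP1 peak, but this was so only in its first 500 kb. There 2 of 15 wide regions held a peak, against 6 of 8 in the remaining 4 Mb.

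Within H3K9me3 the KAP1 peaks lay about as often in the middle as near the edges. Of the 109 overlapping peaks 61 were covered over their whole length, and for 98 the midpoint lay inside a region. Of these 98 midpoints 52 fell in the central 50% of the region, 53.1%, beside 49.3% in the rest of the list. Regions with 2 or more KAP1 peaks numbered 17 in the proximal block, 2 in the Obox block and 3 on chromosome 17, and none held more than 4.

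The score of each list is the authors' own, and what it measures is not given in the sources used here. KAP1 peaks of the intervals had a median score of 117.3, with 146 for those on H3K9me3 and 93.5 for the others, against 106 in the rest, with 134.8 and 95.02. Peaks of the Obox block had a median of 103.7, those of the proximal block 127.8 and those of chromosome 17 123. The strongest calls name the places a reader would look at first.

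In the proximal block the KAP1 peak of highest score, 745.27, lay at 11641636 to 11644049, on H3K9me3. It was followed by 15407383 to 15408054 (675.94), 8337086 to 8339821 (611.73), 11494620 to 11496851 (591.16) and 9094681 to 9097285 (504.52), all on H3K9me3. The highest without H3K9me3 scored 208.08, at 13614531 to 13615320, 116.5 kb from the nearest region. The next, at 7763757 to 7764383 (192.91) and 12871302 to 12872401 (136.11), lay 1002 and 769 bp from one. The widest H3K9me3 regions were at 13068987 to 13084596 (15610 bp, 1 KAP1 peak), 13423196 to 13437212 (14017 bp, 1 peak) and 13390652 to 13401875 (11224 bp, no peak, the nearest 25.6 kb away). These 3 lay within 0.5 Mb of each other and made up most of the cover of their bin. The next in width, at 7747343 to 7754999 and 8649146 to 8656259, held 4 KAP1 peaks each.

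In the Obox block the 3 highest peaks without H3K9me3 scored 311.81 (15763870 to 15765664), 268.81 (15741426 to 15742454) and 220.10 (15797766 to 15798990). They lay 0.252, 23.5 and 4.60 kb from H3K9me3. After the peak of 411.10 the overlapping ones reached 278.23 (16181245 to 16182624), 266.99 (16096450 to 16097279), 203.33 (15865344 to 15865926) and 198.02 (15854581 to 15855574). The highest score without H3K9me3 was thus nearer to the highest with it than in the proximal block. After the region of 9099 bp the widest H3K9me3 regions were at 16181024 to 16188922 (7899 bp, 4 KAP1 peaks), 16191959 to 16195225 (3267 bp, 1 peak), 16094548 to 16097557 (3010 bp, 1 peak) and 16398451 to 16401104 (2654 bp, no peak).

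On chromosome 17 the KAP1 peak of highest score had no H3K9me3. It lay at 17224486 to 17226666, scored 876.05, higher than any other peak of the intervals, and stood 2005 bp from a region. The overlapping peaks at 17609783 to 17612735 (565.12), 17282310 to 17283891 (542.38) and 19130731 to 19132380 (465.95) came next, followed by 17176813 to 17177751 (310.11) and 21475804 to 21477107 (299.81). The other high peaks without H3K9me3 lay at 17761266 to 17762675 (250.85) and 17401932 to 17402949 (169.13), 34 and 4.70 kb from a region. The longest chain of the block had 3 peaks, all on H3K9me3, at 17609783 to 17615460, and its longest stretch without a call ran from 19464551 to 19735716, 271.2 kb. The widest H3K9me3 region of the intervals, 17270764 to 17289868 with 19105 bp, held 2 KAP1 peaks. The next, 17382599 to 17397228 with 14630 bp, held none, and the third, 17168715 to 17178590 with 9876 bp, held 1. Those at 17102820 to 17111661 (8842 bp) and 17116767 to 17125232 (8466 bp) held none.

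All 5 of the widest H3K9me3 regions of chromosome 17 lay in its first 500 kb, and this bin had its own pattern. Of its 67 H3K9me3 regions 3 held a KAP1 peak, 4.48% (1.53 to 12.4), and of its 15 regions of 3 kb or more 2 did. In the remaining 4 Mb 17 of 85 regions held a peak, 20% (12.9 to 29.7), and 6 of 8 wide ones. KAP1 peaks overlapped in 4 of 11 in the first bin and in 20 of 32, 62.5% (45.2 to 77.1), in the remainder. Without its first bin the chromosome 17 block thus came closer to the proximal block of chromosome 7 in both shares. In 21000 to 21500 kb, at its far end, all 6 KAP1 peaks overlapped.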

How the data were processed

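Calls came from 2 lists deposited by the authors, 1 library each, in mm9. The submitters' processing notes name Bowtie2 2.2.1 and mm9. KAP1 names have the form that MACS writes, per the file. Sequencing depth is unknown, and for the H3K9me3 caller, the caller settings, the control and the read filters the sources used here give nothing. The score the authors deposited in each list was used only within that list. KAP1 scores start at 70.

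Members were assigned by midpoint. The rest of a list is every other call, and its length is the span from the first to the last call of each chromosome less the intervals. Spacing is start to start between neighbours. Counting intervals are at 95%. Promoter identity is 100% less the edit distance over the length, from global alignment of RefSeq sequence (GRCm38.p6) with edlib 1.3.9. Scripts used numpy 2.4.6, pandas 2.3.3, scipy 1.17.1 and matplotlib 3.10.9 under Python 3.11.15 and were tested on simulated calls. The regions described and the comparison arrays were chosen with earlier results of these data known. Regions were named by rule: per block the 5 KAP1 peaks with and the 3 without H3K9me3 of highest score, the 5 widest H3K9me3 regions, the longest empty stretch and the longest chain. Other positions printed were chosen after their values were seen.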

Additional observations from a re-analysis of the deposited data

How the results depend on the processing

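Of 96 values computed under an alternative setting, 68 moved by no more than the counting interval, 1.5 times (counts and medians) or 0.1 (correlations), and 28 moved by more. A reversal was defined only for the correlations, as a change of sign, and 0 of them reversed. Keeping the upper 50% of the KAP1 list by score gave an overlap of 69.0% in the intervals (57.7% over the whole list), 87.7% in the proximal block and 100% in 8 to 9 Mb, and 17.9% and 32.1% of H3K9me3 regions with KAP1 in the intervals and the Obox block (10.54% over the whole list). Keeping the upper 50% of the H3K9me3 list gave 32.3% of regions with KAP1 in the intervals (24.96% over the whole list), 39.1% in the proximal block, 100% in 8 to 9 Mb, 71.4% in the Obox block and 20% on chromosome 17. Both lists then lose calls by construction: 116 KAP1 and 201 H3K9me3 calls were left in the intervals, 57 and 92 in the proximal block, 32 and 14 in the Obox block, and 27 and 95 on chromosome 17, and the H3K9me3 median width became 1392 bp. Counting regions within 1 kb gave 61.1% in the intervals (50.4% over the whole list) and 100% in 8 to 9 Mb. Merging calls within 1 kb left 11 KAP1 and 6 H3K9me3 calls in 8 to 9 Mb. Of these, 10 KAP1 calls overlapped H3K9me3, 90.9%, and 4 H3K9me3 calls held KAP1, 66.7% against 83.3% unmerged. Merging made the median spacing of the intervals 21.3 kb for KAP1 and 28.6 kb for H3K9me3. Spearman's rho over bins was 0.536 with 250 kb bins of the same intervals. It was 0.172 with 13 bins of 1 Mb, where Pearson's r was 0.308. Those 13 bins leave out 16000 to 16500 kb of chromosome 7, with 26 KAP1 peaks, and 21000 to 21500 kb of chromosome 17. For 1 Mb bins, bin size and the calls left out thus cannot be told apart. The cause was not tested. Over these settings the overlap of KAP1 peaks ran from 63.5 to 87.7% in the proximal block and from 22.7 to 40.6% in the Obox block. Leaving out 8 to 9 Mb gave 49.2% in the intervals and 63.5% in the proximal block. Spacing between midpoints, added after the data were seen, was 6.04 kb for KAP1 and 13.1 kb for H3K9me3. No paired analysis was possible because each antibody has 1 library, and no replicate could be left out.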

Other observations

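In 15700 to 16100 kb of chromosome 7, 12 of 49 distances between neighbouring starts, 24.5%, lay between 4.5 and 6.5 kb, beside 5 of 93 in the proximal block, 5.38%, and 3.29% in the rest of the list. The window was chosen after the distances were seen. Neighbours within 10 kb made up 85.7% of pairs in 15700 to 16100 kb, 50.5% in the proximal block and 35.0% in the rest. This difference in density was not adjusted for. In the chain of 20 peaks the median distance was 4.76 kb, with a range of 0.925 to 10.8 kb, and in the chains of 12 and 14 peaks the medians were 3.24 and 1.85 kb.

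The numbers in the names of KAP1 peaks are not continuous. The 66 peaks of the Obox block span 92 numbers, the 94 of the proximal block 153 and the 43 of chromosome 17 67, while the whole list has 19549 peaks and a highest number of 36417. The share of numbers kept was thus higher in the Obox block than in the other blocks. It was higher still within 8 to 9 Mb of the proximal block, where 20 peaks span 25 numbers. What the missing numbers stood for is not given in the sources used here.

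The interval ends fell between well separated KAP1 peaks. On chromosome 7 the last KAP1 peak inside, 16294061 to 16294788, was followed by the next at 16533714 to 16534255. On chromosome 17 the last inside was 21480459 to 21480982 and the next 21612950 to 21613502.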
